A study of Homo sapiens with 18 samples.

Results

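The genes described here are the interferon effector genes MX1, IFI27, IFI44L, IFI44, IFI6, EPSTI1, ISG20, IFI35, BST2 and PLSCR1. These 10 genes were taken by symbol from a table of 13141 genes, and all 10 had a row. Several were chosen by the size of their fall after either shRNA, so the genes were selected on the comparison of shRNA with control, which is given below as a description without a test. They were measured in 786-O cells, an established human line of clear cell renal cell carcinoma that lacks a functional VHL gene, on 18 Illumina HumanHT-12 V4 arrays. The 6 groups of 3 arrays were VHL-/- cells with scramble shRNA (SCR), PBRM1 shRNA or KDM5C shRNA, and VHL+/+ cells of the same line with the same 3 shRNAs. The study describes the VHL comparison as re-expression of VHL, and the vector and number of clones are not given in the sources used here. The labels state that the cells were left untreated, so no interferon was added. All comparisons rest on 1 control shRNA. Each target was suppressed stably by 1 shRNA on these arrays, in 1 cell line. Nothing in the labels says that the 3 arrays of a group came from separate cultures, so p-values measure the spread between arrays, which may be technical.

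Type I interferon binds the receptor made of IFNAR1 and IFNAR2, and the kinases JAK1 and TYK2 then act on the transcription factor ISGF3. This complex, which holds STAT2 and IRF9, binds interferon-stimulated response elements (ISREs) in front of antiviral effector genes. VHL is the ubiquitin ligase subunit that marks HIF for degradation, PBRM1 is a subunit of the PBAF chromatin-remodelling complex, and KDM5C is an enzyme that demethylates lysine 4 of histone H3.

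Promoter sequences are shown because the ISRE is the element through which these genes are known to be read. RefSeq windows of build GRCh38.p14, from 250 bases before to 50 bases after each listed start, were matched by symbol for 10 of 10 genes, with 15 windows because some genes have several starts. The ISRE core searched was GAAANNGAA on either strand. It occurred in 9 of 10 genes, all but IFI35, and in 9.86% of the 27305 genes with a window. In the sequences below, written 5′ to 3′ on the strand of the gene, capitals mark the ISRE core, which reads as its reverse complement where it lies on the other strand.
MX1, chr21:41420563-41420589, plus strand, 2 overlapping cores that begin 11 bases after the first listed start: agaaatGAAACCGAAACTGAAttgtcc
IFI27, chr14:94110611-94110679, plus strand: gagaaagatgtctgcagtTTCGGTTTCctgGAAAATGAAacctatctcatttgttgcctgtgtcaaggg
IFI44L, chr1:78620345-78620413, plus strand: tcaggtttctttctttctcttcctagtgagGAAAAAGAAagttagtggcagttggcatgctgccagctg
IFI44, chr1:78649742-78649788, plus strand: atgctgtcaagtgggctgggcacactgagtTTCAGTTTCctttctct
IFI6, chr1:27672247-27672315, minus strand: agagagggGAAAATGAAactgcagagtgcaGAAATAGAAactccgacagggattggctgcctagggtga
EPSTI1, chr13:42992253-42992321, minus strand: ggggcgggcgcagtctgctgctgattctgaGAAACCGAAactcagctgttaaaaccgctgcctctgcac
ISG20, chr15:88638917-88638985, plus strand: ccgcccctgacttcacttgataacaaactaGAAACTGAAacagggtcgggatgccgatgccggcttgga
BST2, chr19:17405716-17405784, minus strand: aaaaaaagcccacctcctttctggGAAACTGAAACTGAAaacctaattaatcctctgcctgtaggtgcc
PLSCR1, chr3:146544648-146544716, minus strand: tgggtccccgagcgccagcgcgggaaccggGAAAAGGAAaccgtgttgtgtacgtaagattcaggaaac

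The cores of MX1 and BST2 lie as overlapping pairs, those of IFI27 lie on opposite strands, and MX1, IFI6 and IFI44L hold 1 further match each outside the stretch shown, that of MX1 in the window of listed start 3. The GAS core TTCNNNGAA, another element known from interferon responses, occurred in 6 of 10 genes and in 9.38% of all genes, and in 4 of the 6 it overlapped an ISRE core, which for MX1 is the core not shown. The core ACGTG of the element bound by HIF occurred in IFI6, EPSTI1 and ISG20, that is in 3 of 10 genes against 24.9% of all genes. With 1 mismatch allowed, 10 of 10 genes and 65.4% of all genes held the ISRE core. A match describes the letters only.

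**Figure D1:**
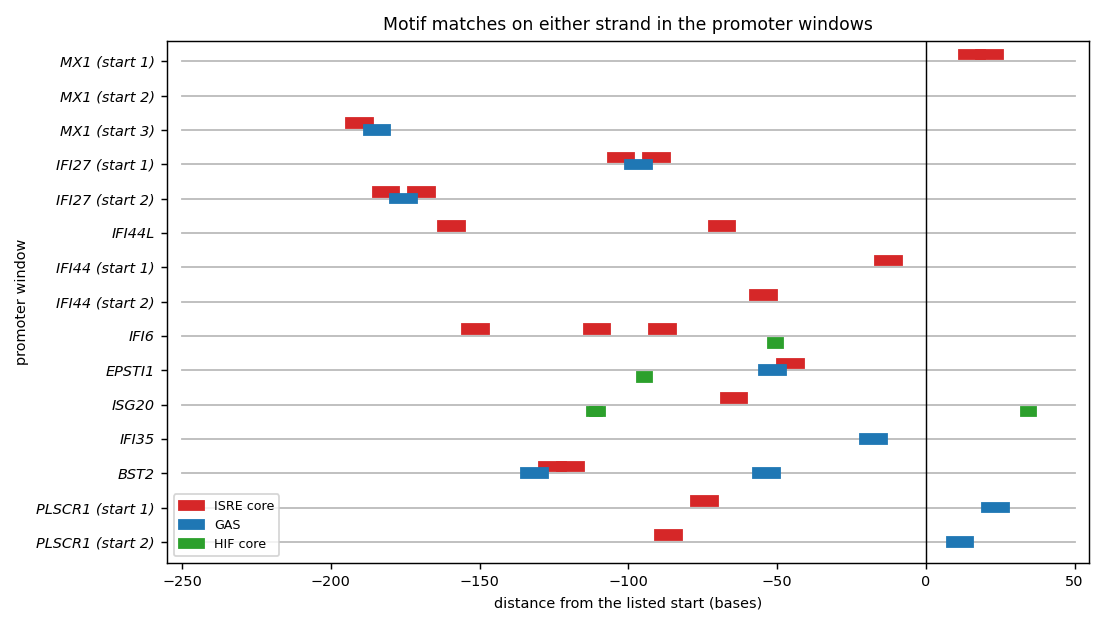
Each line is 1 promoter window, with the distance from its listed start in bases on the horizontal axis and bars for matches to the ISRE core, the GAS core and the HIF core on either strand. The ISRE core is found in 13 of 15 windows, and the windows without it are the second of MX1 and that of IFI35.

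Values are log2 signals, so that a difference of 1 is a change of 2-fold, and errors of group means are SD over 3 arrays. A level is compared only between groups for the same gene, since signals of different probes are not on a common scale. In RNA from whole cultures, fewer cells that express a gene and less RNA per cell cannot be told apart.

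In the series as a whole, arrays of 1 group correlated at 0.976 to 0.995 across genes, and the chip term passed adjusted p under 0.05 for 3130 of 13141 genes and for 3 of the 10. PBRM1 mRNA gave -0.06 (SE 0.12) with PBRM1 shRNA in VHL-/- cells and -0.15 (SE 0.12) in VHL+/+ cells, so the array does not show the knockdown. The PBRM1 row had group means of 7.21 to 7.35, below the median signal of the table (7.65). The table used had no row under the symbol KDM5C, so that knockdown was not checked on these arrays. The study describes both targets as stably knocked down. It also measured selected genes, ISG20 among them, by RT-PCR with more than 1 shRNA for each target. VHL mRNA did not separate the genotypes (0.08, SE 0.09 in SCR cells), which leaves the HIF targets as the check of the VHL labels. The kidney marker PAX8 was measured in all groups (8.26 to 8.71). Of 5 immune cell markers 0 were called in any comparison, the B cell marker MS4A1 lying at 6.67 to 6.73, close to the lowest value of the table (6.27), while the macrophage marker CD68 was -0.44 (SE 0.10) in VHL+/+ against VHL-/- SCR cells and, in VHL-/- cells, -0.34 (SE 0.10) with PBRM1 shRNA and -0.32 (SE 0.10) with KDM5C shRNA, in the direction of the 10 genes. Of 3 fibroblast markers LUM was called lower with both shRNAs in both backgrounds (-0.89 to -0.73), and COL1A1 and COL1A2 were not. The part of these markers in the results was not tested.

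For all 10 genes the mean was highest in VHL-/- SCR cells and second highest in VHL+/+ SCR cells. The 3 arrays of VHL-/- SCR cells lay above all 12 shRNA arrays for 10 of 10 genes. The 3 arrays of VHL+/+ SCR cells did so for 4 of 10 genes. Several genes were chosen for their fall from SCR after shRNA, which favours this order. The share of all genes with such an order was not computed, so nothing is read from these counts. Among the 4 shRNA groups, the means of a gene differed by 0.15 (PLSCR1) to 0.91 (IFI44), and neighbours in their order overlapped in nearly every case, the exception being the gap of 0.17 between VHL+/+ KDM5C shRNA and VHL+/+ PBRM1 shRNA cells for BST2.

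MX1 is a dynamin-like GTPase that blocks viral nucleocapsids. In VHL-/- SCR cells it read 10.62, 10.41 and 9.67. In VHL-/- cells with PBRM1 shRNA it read 7.47, 7.43 and 8.22, and with KDM5C shRNA 7.76, 8.08 and 7.75. Both sets lay more than 1 log2 unit below the lowest control array. In VHL+/+ SCR cells it read 8.48, 8.48 and 9.35, which is below every VHL-/- SCR array and above every shRNA array. With PBRM1 shRNA the VHL+/+ arrays read 7.59, 7.22 and 7.50, and with KDM5C shRNA 7.06, 7.52 and 8.09. Among the 4 shRNA groups, neighbours in the order of means overlapped, while the VHL-/- KDM5C shRNA arrays lay above the VHL+/+ PBRM1 shRNA arrays.

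EPSTI1, first known as a gene that epithelial cells switch on beside stromal fibroblasts, was likewise highest in the SCR groups. It read 9.82, 9.80 and 9.20 in VHL-/- SCR cells and 8.35, 8.20 and 8.99 in VHL+/+ SCR cells. All 12 shRNA arrays lay lower, between 6.64 and 7.81. The shRNA arrays of VHL-/- cells (6.87 to 7.67) and those of VHL+/+ cells (6.64 to 7.81) overlapped.

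IFI44L and IFI44 are related genes that lie next to each other on chromosome 1, and their products are cytoplasmic proteins linked to antiviral defence. IFI44L read 9.62, 9.89 and 8.92 in VHL-/- SCR cells and 8.62, 8.15 and 9.21 in VHL+/+ SCR cells. The third arrays crossed, so the groups overlapped. With shRNA, IFI44L lay between 6.88 and 8.11 on 12 arrays. IFI44 read 11.12, 11.36 and 10.49 in VHL-/- SCR cells and 10.02, 10.00 and 10.04 in VHL+/+ SCR cells, and its shRNA arrays ran from 8.74 to 10.32. The VHL+/+ SCR arrays of IFI44 therefore lay within the range of the VHL-/- shRNA arrays (9.11 to 10.32), unlike those of IFI44L.

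IFI27 and IFI6 belong to 1 family of small hydrophobic membrane proteins, IFI6 being known to protect cells from infection by flaviviruses. IFI27 read 10.59, 10.46 and 10.22 in VHL-/- SCR cells and 9.26, 9.31 and 9.95 in VHL+/+ SCR cells, against 7.36 to 8.997 on the shRNA arrays. IFI6 read 12.33, 12.19 and 11.75 in VHL-/- SCR cells and 10.92, 11.02 and 11.52 in VHL+/+ SCR cells. Its shRNA arrays ran from 9.43 to 11.24, so that for IFI6 the VHL+/+ SCR arrays overlapped them and for IFI27 they did not.

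ISG20 is an exonuclease that degrades RNA, and IFI35 is a leucine zipper protein that binds NMI. ISG20 read 8.84, 8.81 and 8.45 in VHL-/- SCR cells and 7.32, 7.72 and 7.86 in VHL+/+ SCR cells. The latter was already within the range of the shRNA arrays (6.98 to 8.31). IFI35 read 9.77, 9.85 and 9.48 in VHL-/- SCR cells and 8.69, 8.38 and 9.30 in VHL+/+ SCR cells, with shRNA arrays from 8.11 to 8.89.

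BST2 (tetherin) holds budding virus particles at the cell surface, and PLSCR1 is a phospholipid scramblase. BST2 read 11.61, 11.48 and 11.28 in VHL-/- SCR cells and 10.71, 11.22 and 11.46 in VHL+/+ SCR cells, where it varied most from array to array (SD 0.39, n = 3). Its shRNA arrays ran from 10.71 to 11.21. PLSCR1 read 8.47, 8.46 and 8.05 in VHL-/- SCR cells, 7.60, 7.62 and 7.93 in VHL+/+ SCR cells and 7.29 to 7.68 with shRNA. BST2 and PLSCR1 thus had the narrowest ranges among the 10 genes in VHL-/- cells.

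**Figure D2:**
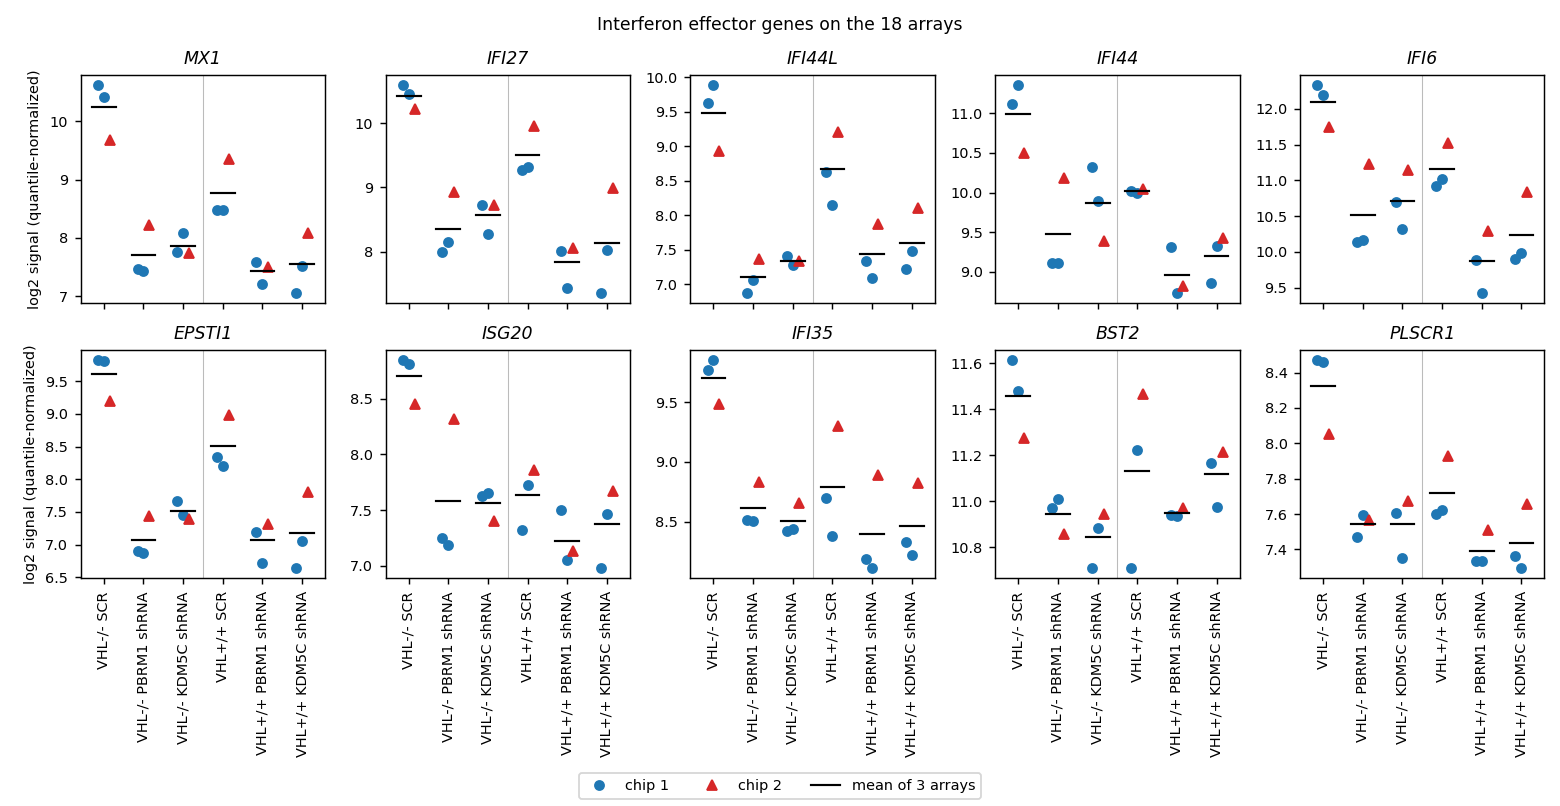
Each panel shows the log2 signal of 1 gene on 18 arrays in 6 groups, with circles for chip 1, triangles for chip 2 and lines for the mean of 3 arrays. The 3 VHL-/- SCR arrays lie above all 12 shRNA arrays in every panel, an order that the choice of genes favours. The triangle is the lowest VHL-/- SCR array and the highest VHL+/+ SCR array in all 10.

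The comparison of shRNA with SCR in VHL-/- cells asked what loss of PBRM1 or KDM5C does to transcription, and it is the comparison that chose the genes. With PBRM1 shRNA, EPSTI1 was lowest relative to SCR (log2 fold change -2.54, SE 0.24, 5.81-fold lower), followed by MX1 (-2.53, SE 0.28), IFI44L (-2.38, SE 0.26) and IFI27 (-2.07, SE 0.26). IFI6, IFI44, ISG20 and IFI35 were lower by 2.99-, 2.86-, 2.17- and 2.12-fold, PLSCR1 by 1.72-fold and BST2 by 1.42-fold. With KDM5C shRNA, the order began with MX1 (-2.37, SE 0.28, 5.17-fold lower), IFI44L (-2.13, SE 0.26), EPSTI1 (-2.10, SE 0.24) and IFI27 (-1.85, SE 0.26), and ended with PLSCR1 (1.72-fold) and BST2 (1.53-fold). A gene was called at adjusted p under 0.05 in limma and a fold change of at least 1.5. On that rule 9 of 10 genes were called lower with PBRM1 shRNA, all but BST2, where 0.89% of all genes were called lower. With KDM5C shRNA 10 of 10 were called, against 0.654% of all genes. The arrays of the groups did not overlap for 10 of 10 genes with either shRNA, where 10.3% (PBRM1 shRNA) and 8.2% (KDM5C shRNA) of all genes were lower without overlap. Since these values selected the genes, nothing is read from the counts. Both comparisons share the same 3 SCR arrays.

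In VHL+/+ cells the same comparison also selected the genes, so its values and counts are again a description from which nothing is read. With PBRM1 shRNA the median log2 fold change was -1.14, against -1.55 in VHL-/- cells, and it ran from -1.67 for IFI27 (SE 0.26, 3.19-fold lower) to -0.18 for BST2. MX1, IFI27, IFI44L, IFI6 and EPSTI1 were called, 5 of 10 genes where 0.304% of all genes were called lower, and the arrays did not overlap for 7 of 10 genes against 6.51% of all genes. With KDM5C shRNA the median was -0.87, against -1.29 in VHL-/- cells, from -1.38 for IFI27 (SE 0.26, 2.60-fold lower) to -0.01 for BST2. The called genes were again MX1, IFI27, IFI44L, IFI6 and EPSTI1, 5 of 10 against 0.426% of all genes, and arrays did not overlap for 6 of 10 genes against 8.86%. IFI44 missed the rule with either shRNA although its arrays did not overlap (-1.06, SE 0.29 and -0.82, SE 0.29). ISG20, IFI35 and BST2 overlapped in both comparisons. The counts in VHL+/+ cells rest on the model: with no chip term they were 3 and 1. With PBRM1 shRNA the count was also 3 when replicate 3 of the SCR arrays or replicate 2 of the PBRM1 shRNA arrays of VHL+/+ cells was dropped. With KDM5C shRNA it was 2 when replicate 1 or 3 of the SCR arrays, or replicate 1 or 2 of the KDM5C shRNA arrays, of VHL+/+ cells was dropped.

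Over both chips, the log2 fold change lay closer to 0 in VHL+/+ than in VHL-/- cells for 10 of 10 genes with PBRM1 shRNA and for 10 of 10 with KDM5C shRNA. Within chip 1 this also held for 10 of 10 genes with either shRNA. Within chip 2 it held for 9 of 10 with KDM5C shRNA and for 4 of 10 with PBRM1 shRNA, where MX1, IFI27, IFI44, IFI6, ISG20 and BST2 were further from 0 in VHL+/+ cells and the median was -1.23, against -0.58 in VHL-/- cells. The difference of the log2 fold changes was largest for MX1, 1.195 (SE 0.39) with PBRM1 shRNA and 1.16 (SE 0.39) with KDM5C shRNA, and for IFI44L, 1.15 (SE 0.37) and 1.07 (SE 0.37). It was smallest for IFI6 with PBRM1 shRNA (0.29, SE 0.33) and for IFI44 with KDM5C shRNA (0.30, SE 0.41). The medians were 0.57 and 0.68, where the medians of all genes were 0.00 and 0.00. These differences hold the contrasts that chose the genes and are a description. In limma, 0 of 13141 genes passed adjusted p under 0.05 for either difference. Before adjustment 553 (PBRM1 shRNA) and 1014 (KDM5C shRNA) reached 0.05, where a share of 0.05 of all genes is expected when none differ. When the third array of VHL-/- SCR cells was dropped, 12 and 13 genes passed.

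**Figure D3:**
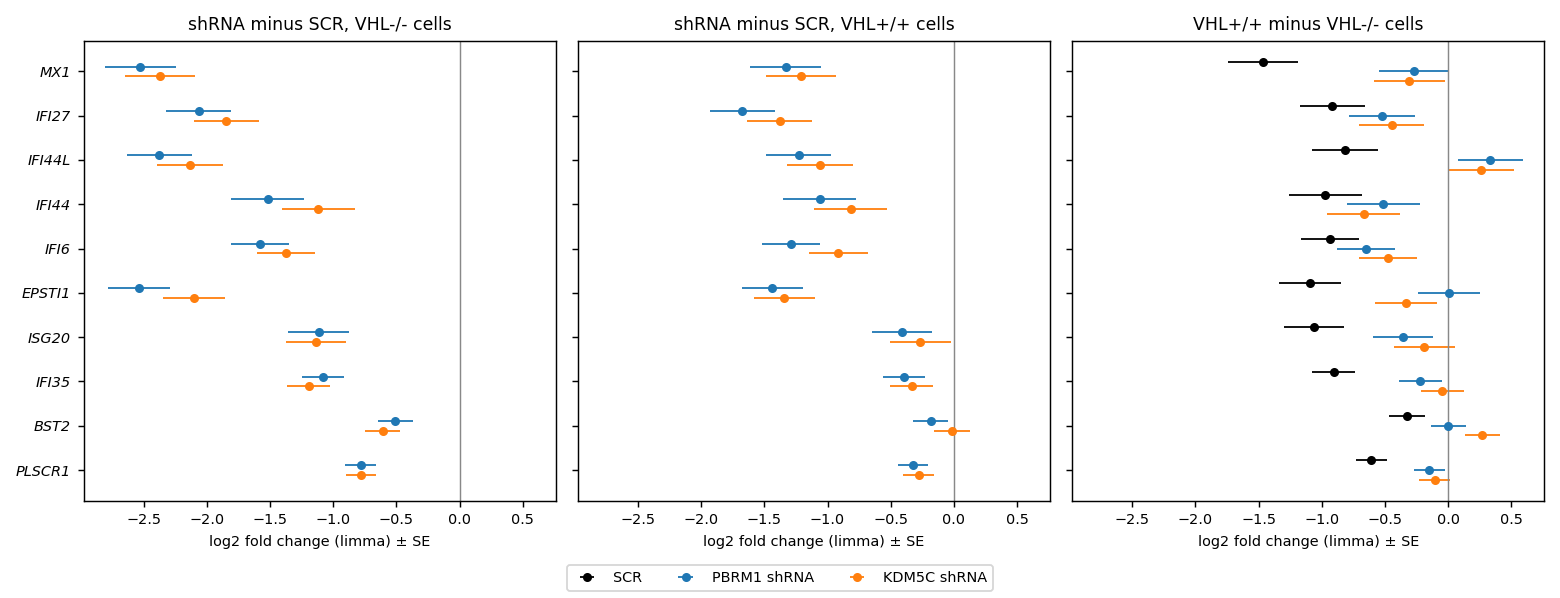
Points are log2 fold changes from limma with bars of 1 SE for each gene, for shRNA minus SCR in VHL-/- cells, shRNA minus SCR in VHL+/+ cells, and VHL+/+ minus VHL-/- cells with SCR or either shRNA. The SCR points in the last panel lie between -1.47 and -0.32, and those with shRNA lie between -0.67 and 0.33. The genes were chosen on shRNA against SCR, so the gap between these ranges is a description.

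Whether VHL alters these genes was asked in SCR cells, a comparison that did not choose them but that shares the SCR arrays with those that did. Choosing genes for their falls from SCR favours high values on the VHL-/- SCR arrays, which are the reference here. The fold changes may be too large for that reason, so the p-values and counts are given as a description. All 10 genes were lower in VHL+/+ than in VHL-/- SCR cells, with a median log2 fold change of -0.93 (-1.47 to -0.32), where the median of all genes was 0.00. MX1 was lower by 2.76-fold (8.77 ± 0.50 against 10.24 ± 0.50, n = 3, log2 fold change -1.47, SE 0.28, limma adjusted p = 0.00854). EPSTI1 was lower by 2.14-fold (limma adjusted p = 0.0219), ISG20 by 2.09-fold (0.0226), IFI6 by 1.91-fold (0.0353), IFI35 by 1.87-fold (0.00699) and PLSCR1 by 1.53-fold (0.0110). These 6 of 10 genes were called lower, where 0.685% of all genes were. IFI44 (-0.97, limma adjusted p = 0.0847), IFI27 (-0.92, 0.0686), IFI44L (-0.82, 0.106) and BST2 (-0.32, 0.266) did not pass. The arrays did not overlap for 8 of 10 genes, all but IFI44L and BST2, against 8.46% of all genes.

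The number of calls depended on single arrays. Dropping replicate 1, 2 or 3 of the VHL-/- SCR cells left 0, 1 and 9 calls, and dropping replicate 1, 2 or 3 of the VHL+/+ SCR cells left 1, 3 and 4. It was 2 with no chip term and 3 at a fold change of at least 2. Over all arrays left out in turn, the median log2 fold change stayed between -1.26 and -0.77.

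With either shRNA present, the median difference between VHL+/+ and VHL-/- cells over both chips was closer to 0, an order that did not hold within chip 2 (below 0 by more with PBRM1 shRNA, -0.43, than with SCR, -0.22). In PBRM1 shRNA cells the median was -0.25 (-0.65 for IFI6 to 0.33 for IFI44L), and 0 of 10 genes were called where 1.02% of all genes were called either way. In KDM5C shRNA cells the median was -0.25 (-0.67 for IFI44 to 0.27 for BST2), and 0 of 10 were called against 0.89% of all genes. Arrays did not overlap for 0 of 10 genes with PBRM1 shRNA (13.5% of all genes) and for 1 of 10, BST2, with KDM5C shRNA (12.4%). For MX1 the log2 fold change was -0.27 (95% interval -0.86 to 0.32) with PBRM1 shRNA and -0.31 (-0.90 to 0.29) with KDM5C shRNA, against -2.06 to -0.88 in SCR cells. For EPSTI1 it was 0.01 (-0.51 to 0.53) and -0.34 (-0.85 to 0.18). The intervals of IFI6 with PBRM1 shRNA (-1.13 to -0.16, limma adjusted p = 0.190) and of IFI44 with KDM5C shRNA (-1.28 to -0.06, limma adjusted p = 0.282) lay below 0 before adjustment. IFI6 was called in PBRM1 shRNA cells when the third array of VHL-/- SCR cells was dropped. The change in the VHL difference between SCR and shRNA cells is the same quantity as the difference of shRNA effects given above. That quantity holds the contrasts that chose the genes, and 0 of 13141 genes passed for it with either shRNA. The intervals and p-values here are therefore a description, and setting them beside those of SCR cells is not a test.

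PBRM1 and KDM5C shRNA cells were also compared directly. In VHL-/- cells 0 of 10 genes were called, where 0% of all genes were called (limma, 707 genes at an unadjusted p under 0.05), and in VHL+/+ cells 0 of 10, where 0% were called (545 genes). The largest differences were -0.44 for EPSTI1 in VHL-/- cells (95% interval -0.96 to 0.08) and -0.37 for IFI6 in VHL+/+ cells (-0.86 to 0.11), both lower with PBRM1 shRNA. For MX1 the intervals were -0.75 to 0.44 and -0.71 to 0.47. These comparisons share arrays with those that chose the genes, and a p above the threshold does not show equal levels. Of all genes, a share of 0.05 is expected at an unadjusted p under 0.05 when none differ.

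Replicates 1 and 2 of every group were hybridised on chip 1 and replicate 3 on chip 2, and the 2 chips gave different answers for SCR cells. The chip 2 array was the lowest of the 3 in VHL-/- SCR cells for 10 of 10 genes and the highest in VHL+/+ SCR cells for 10 of 10. Within chip 1 the median difference of VHL+/+ minus VHL-/- SCR cells was -1.28, and 10 of 10 genes were below 0. Within chip 2 it was -0.22, with 8 of 10 below 0, IFI44L (0.29) and BST2 (0.19) being above. MX1 gave -2.04 on chip 1 and -0.32 on chip 2, and EPSTI1 gave -1.54 and -0.21. A term for the difference between chips in the VHL effect, over all 3 shRNAs, called 0 of 10 genes, where 0.145% of all genes were called, and the nearest was IFI35 (0.61, SE 0.14, limma adjusted p = 0.112). Its median over the 10 genes was 0.42, against -0.002 over all genes. Because the term averages over the shRNAs, it does not address SCR cells alone.

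The shRNA effects in VHL-/- cells were also smaller on chip 2, with medians of -2.12 on chip 1 and -0.58 on chip 2 for PBRM1 shRNA and of -1.57 and -1.08 for KDM5C shRNA, and 10 of 10 genes were below 0 on both chips. For ISG20 with PBRM1 shRNA the values were -1.61 and -0.14. In VHL+/+ cells the medians were -1.03 and -1.23 for PBRM1 shRNA and -0.97 and -0.65 for KDM5C shRNA. Within KDM5C shRNA cells the median VHL difference turned from -0.49 on chip 1 to 0.27 on chip 2, and within PBRM1 shRNA cells it was -0.07 on chip 1 and -0.43 on chip 2. On chip 2 the median in PBRM1 shRNA cells was thus further from 0 than that in SCR cells (-0.22). Chip 2 holds 1 array of each group, so no spread can be given there. The VHL labels of these arrays were checked with 8 HIF targets, the genes that VHL is known to hold down. Their mean deviation was above 0 on all 9 VHL-/- arrays (0.23 to 0.85) and below 0 on all 9 VHL+/+ arrays (-0.63 to -0.22). HIF targets do not tell the shRNAs apart, so the shRNA labels were not checked. The part of the chip in the results was not tested beyond these values.

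**Figure D4:**
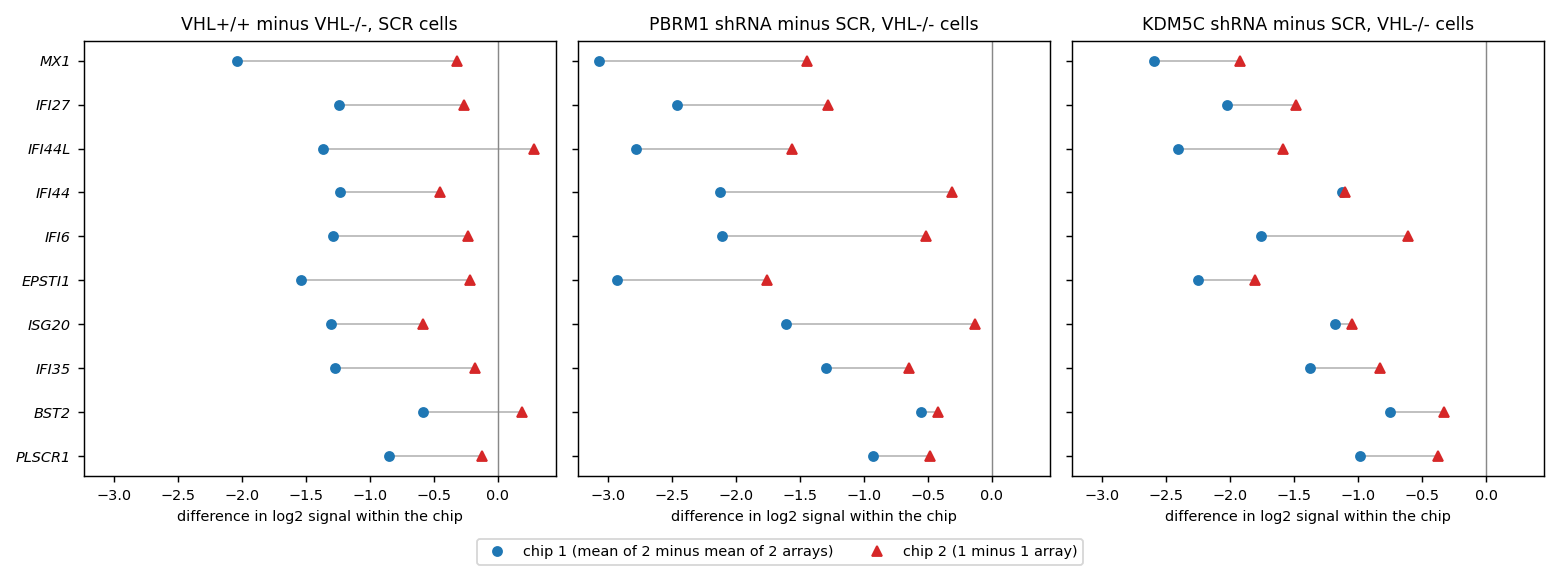
For each gene the difference in log2 signal is drawn separately for chip 1 (circles, means of 2 arrays) and chip 2 (triangles, 1 array a group), for VHL+/+ minus VHL-/- SCR cells and for each shRNA minus SCR in VHL-/- cells. All triangles lie to the right of the circles, and in the first panel those of IFI44L and BST2 pass 0.

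Beyond the group means, the genes moved together from array to array. After the group means and the chip effect were removed, the 45 pairs had a median Pearson's r of 0.71 over 18 arrays (-0.09 to 0.93), and 31 pairs were above 0.5. The closest were IFI44L with IFI35 (0.93), IFI27 with EPSTI1 (0.92), and IFI44 with ISG20 (0.91). IFI44L and its neighbour IFI44 reached 0.59. BST2 followed the others least, with a median r of 0.26, and its only negative pair was with IFI44. The chip effect removed was common to all groups. The chip 2 array had 0 genes above the group mean in VHL-/- SCR cells and 10 in VHL+/+ SCR cells. Such shifts that differ between groups remain in the values of r. Pairs of other genes were not correlated for reference. The arrays share chips and normalization, so these values are a description.

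**Figure D5:**
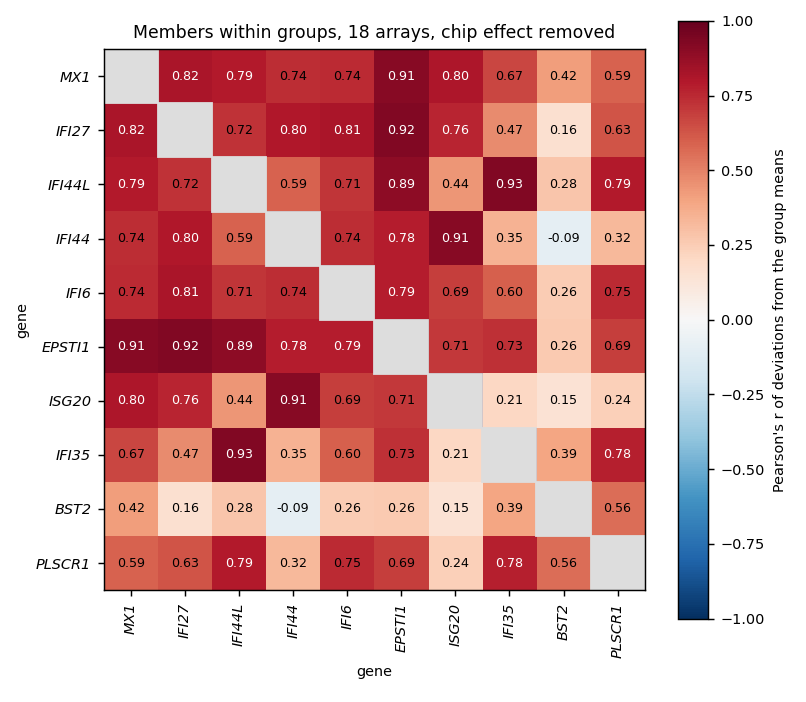
Cells give Pearson's r between pairs of genes over 18 arrays, computed on deviations from the group means with a common chip effect removed. Values range from -0.09 to 0.93, and the lowest row is that of BST2.

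The genes outside the 10 whose pattern over the 18 arrays was most like their mean profile, with the chip effect removed, were OAS1 (r = 0.99), OAS2 (0.99), IFIH1 (0.97), SAMD9L (0.97), IFIT1 (0.96), MX2 (0.96), PRIC285 (0.95), PARP9 (0.95), FAM134B (0.95) and SLC15A3 (0.95). The 10 genes themselves correlated with that profile at 0.76 (BST2) to 0.99 (MX1).

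The other genes of the pathway were taken from lists by role. Of 25 ligand symbols searched, 3 had a row, IFNA2, IFNA21 and IFNK, and IFNB1 had none. In any shRNA or VHL comparison 0 of 3 were called. Their group means (6.56 to 6.87) lay close to the lowest value of the table (6.27), so a lack of change cannot be read from them. Among the genes of the receptor, its kinases and ISGF3, IRF9 (-1.29, SE 0.15) and STAT2 (-0.88, SE 0.20) were called lower with PBRM1 shRNA in VHL-/- cells. With KDM5C shRNA IRF9 (-1.09, SE 0.15) and STAT2 (-1.01, SE 0.20) were called lower too. In VHL+/+ cells IRF9 was called lower, with -0.87 (SE 0.15) for PBRM1 shRNA and -0.85 (SE 0.15) for KDM5C shRNA, and STAT2 was not (-0.31, SE 0.20 and -0.45, SE 0.20). IFNAR1, IFNAR2, JAK1 and TYK2 were not called in any of these comparisons. Between VHL+/+ and VHL-/- SCR cells, where 6 of the 10 effector genes were called, IRF9 gave -0.49 (SE 0.15, limma adjusted p = 0.0896) and STAT2 -0.41 (SE 0.20, limma adjusted p = 0.323), and neither they nor IFNAR1, IFNAR2, JAK1 and TYK2 passed.

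Of 42 other antiviral effectors measured, 25 were called lower with PBRM1 shRNA and 20 with KDM5C shRNA in VHL-/- cells, with median log2 fold changes of -0.69 and -0.59, and 3 and 1 were called in VHL+/+ cells. Of all genes, 0.89% and 0.654% were called lower with these shRNAs in VHL-/- cells and 0.304% and 0.426% in VHL+/+ cells. For VHL in SCR cells the share of all genes was 0.685%. MX2 is counted here and among the relatives below. In SCR cells 15 of 42 were called lower in VHL+/+ than in VHL-/- cells (median -0.42), among them IFIT1 (-1.02, SE 0.20), a protein that binds viral RNA, ISG15 (-1.07, SE 0.20), a ubiquitin-like modifier, and OAS1 (-0.78, SE 0.14), which makes the activator of RNase L. HERC5, the ligase that attaches ISG15, was lower in VHL+/+ cells with SCR (-1.28, SE 0.25), with PBRM1 shRNA (-1.12, SE 0.25) and with KDM5C shRNA (-1.09, SE 0.25), and it did not pass the rule after either shRNA in either background. Of 11 sensors and adaptors, 4 and 3 were called lower with the shRNAs in VHL-/- cells, including IFIH1, a sensor of double-stranded RNA (-1.08, SE 0.12 and -0.94, SE 0.12), and 0 and 0 in VHL+/+ cells. Of 11 inhibitors of the pathway, 1 was called lower with PBRM1 shRNA in VHL-/- cells, USP18 (-0.65), and 1 higher, PTPN11 (0.61). The 4 measured receptors for other interferons were called in 0 of these comparisons.

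Relatives of the 10 genes showed little of this. Of 15 measured relatives, MX2, the neighbour of MX1 on chromosome 21, was called lower in VHL-/- cells with PBRM1 shRNA (-1.03, SE 0.19) and KDM5C shRNA (-1.05, SE 0.19), and in VHL+/+ SCR cells (-0.84, SE 0.19, limma adjusted p = 0.0204). IFI27L1 and IFI27L2, which flank IFI27 on chromosome 14, gave 0.23 and -0.21 with PBRM1 shRNA in VHL-/- cells and were not called. AEN, the neighbour of ISG20 on chromosome 15, gave 0.26, and NMI, the partner of IFI35, gave 0.14. PLSCR3 and PLSCR4 gave -0.14 and -0.08. The row named ISG20L1, an older symbol of AEN, was called higher with KDM5C shRNA in VHL-/- cells (0.75, SE 0.13), while the row named AEN was not called there. Both rows of this gene count among the 15 relatives.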

How the data were processed

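The authors deposited log2 intensities of 18 arrays: probes were read in GenomeStudio, background-corrected, quantile-normalized, filtered on detection and averaged per gene. Whether a batch correction went into these log2 values is not given in the sources used here. Groups, chips and replicate numbers came from the labels. limma 3.58.1 in R 4.3.3 fitted 6 group means and a chip term over all 18 arrays (11 residual degrees of freedom), following the study's use of limma with a term for batch, with Benjamini-Hochberg adjustment over 13141 genes. Arrays have no depth, and their number limits the precision. The genes and gene lists were chosen with earlier results of these data known. All 10 genes are named, with listed pathway genes and the 10 genes of highest correlation. Motifs were searched in RefSeq promoter windows with Python 3.11.15. The fit was tested on simulated data. The settings varied were the chip term (none, or a replicate block), the arrays fitted, filters, fold thresholds, moderation and normalization, each array left out, and, chosen after seeing the data, a chip term for each VHL background, chip 2 SCR arrays left out, and values within chips. 1 gene of the lists is not reported here.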

Additional observations from a re-analysis of the deposited data

How the results depend on the processing

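Of 2518 values recomputed under 33 other settings, 2405 kept their direction and their side of the threshold, or moved by less than 1.5 times or 1 SD. The exceptions concern mostly the number of genes called and the chip 2 SCR arrays, and the cause was not tested. With no chip term, 3 genes (PBRM1 shRNA, VHL+/+), 1 gene (KDM5C shRNA, VHL+/+) and 2 genes (VHL, SCR) were called lower. At a fold change of at least 2, 3 genes were called for VHL in SCR cells. When single arrays were dropped, the calls ran from 3 to 6 (PBRM1 shRNA, VHL+/+), from 2 to 6 (KDM5C shRNA, VHL+/+), from 0 to 9 (VHL, SCR) and from 0 to 1 (VHL, PBRM1 shRNA), and the genes of the whole table with a different shRNA effect between backgrounds from 0 to 12 (PBRM1) and from 0 to 13 (KDM5C). The medians ran from -1.90 to -1.38 (PBRM1 shRNA, VHL-/-), from -1.64 to -1.12 (KDM5C shRNA, VHL-/-) and from -1.26 to -0.77 (VHL, SCR).

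With both chip 2 SCR arrays left out, these medians were -1.91, -1.64 and -1.28, IFI6 made 1 call for VHL in PBRM1 shRNA cells, and 15 and 15 genes of the table had a different shRNA effect. Within chip 1 the medians were -2.12, -1.57 and -1.28, and within chip 2 -0.58, -1.08 and -0.22. Within chip 2 the median was 0.27 for VHL in KDM5C shRNA cells, and for PBRM1 against KDM5C shRNA it was 0.14 in VHL-/- and -0.52 in VHL+/+ cells. Some values changed sign, not all of them near 0. In the main fit ISG20 was -0.36 for VHL in PBRM1 shRNA cells and IFI44L was 0.26 for VHL in KDM5C shRNA cells. For VHL in PBRM1 shRNA cells, leaving out arrays took EPSTI1 from -0.11 to 0.14, BST2 from -0.078 to 0.048 and ISG20 from -0.53 to 0.0073. For VHL in KDM5C shRNA cells IFI35 ran from -0.11 to 0.014. A chip term for each VHL background gave -0.24 (EPSTI1) and -0.10 (BST2) in PBRM1 shRNA cells and -0.038 (IFI44L) in KDM5C shRNA cells.

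Replicate 3 is chip 2, so the replicate number and the chip cannot be told apart for it. Deviations of arrays of equal number correlated at -0.17 to 0.47 (replicate 1), 0.11 to 0.43 (replicate 2) and 0.07 to 0.72 (replicate 3), and after removal of the chip at -0.58 to 0.28 over all, so that not every pair deviated together. With the replicate block in place of the chip term, 9, 10, 5 and 5 genes were called in the 4 shRNA comparisons and 6 for VHL in SCR cells, as without it. The setting with a chip term for each VHL background, the one without chip 2 SCR arrays and the values within chips were chosen after seeing the data. With 3 arrays a group, the number of arrays limits the precision.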
